A study of Homo sapiens with 12 samples.

Results

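The genes described here are 36 imprinted genes, or genes of imprinted domains, from 17 loci, out of 65969 gene identifiers in a table of estimated counts. They were chosen by name, and in part because MEG3 had been seen to rise with knockdown in H1 and to be nearly silent in MEL1. Those values of MEG3 are therefore given as a description, with no test. The libraries are total RNA from embryoid bodies, which are clumps of differentiating pluripotent cells, made of the embryonic stem cell lines H1 and MEL1. All 12 libraries are from day 10 with doxycycline at 2 µg/ml, from cells seeded at 500 per microwell. In every library doxycycline drove a lentiviral hairpin, either the control hairpin SCR or a hairpin (KD1, KD2 or KD3) against METTL14, a subunit of the enzyme that writes N6-methyladenosine on RNA. H1 has 2 libraries each of SCR, KD1, KD2 and KD3, while MEL1 has 1 SCR, 2 KD1 and 1 KD2 library. The labels do not say whether libraries of a group came from separate cultures, so p-values measure only the spread between these libraries.

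Imprinted genes are transcribed from the copy inherited from the mother or from the father, according to DNA methylation laid down in the egg or sperm at imprinting control regions. They lie in clusters in which noncoding RNAs such as MEG3, H19 and KCNQ1OT1 are often transcribed from the copy on which the protein-coding genes are silent. Many encode regulators of fetal growth, placenta and brain. In cultured human pluripotent stem cells imprints are known to be lost or gained in some lines, and silencing of MEG3 is among the changes described. The counts do not separate the parental copies, so allele names below are background.

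Of the 36 genes, 33 had enough counts to be tested and 3 did not. PEG3 and ZIM2, a pair of zinc finger genes sharing a promoter on chromosome 19, were listed at 0 in all 12 libraries. H19, a maternally transcribed noncoding RNA, reached at most 0.0506 CPM (estimated counts scaled to a common library size) in any library. A 2nd identifier, which the name table leaves without a symbol, had the same H19 counts in every library, so reads of H19 were shared out between identical sequences.

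**Figure D1:**
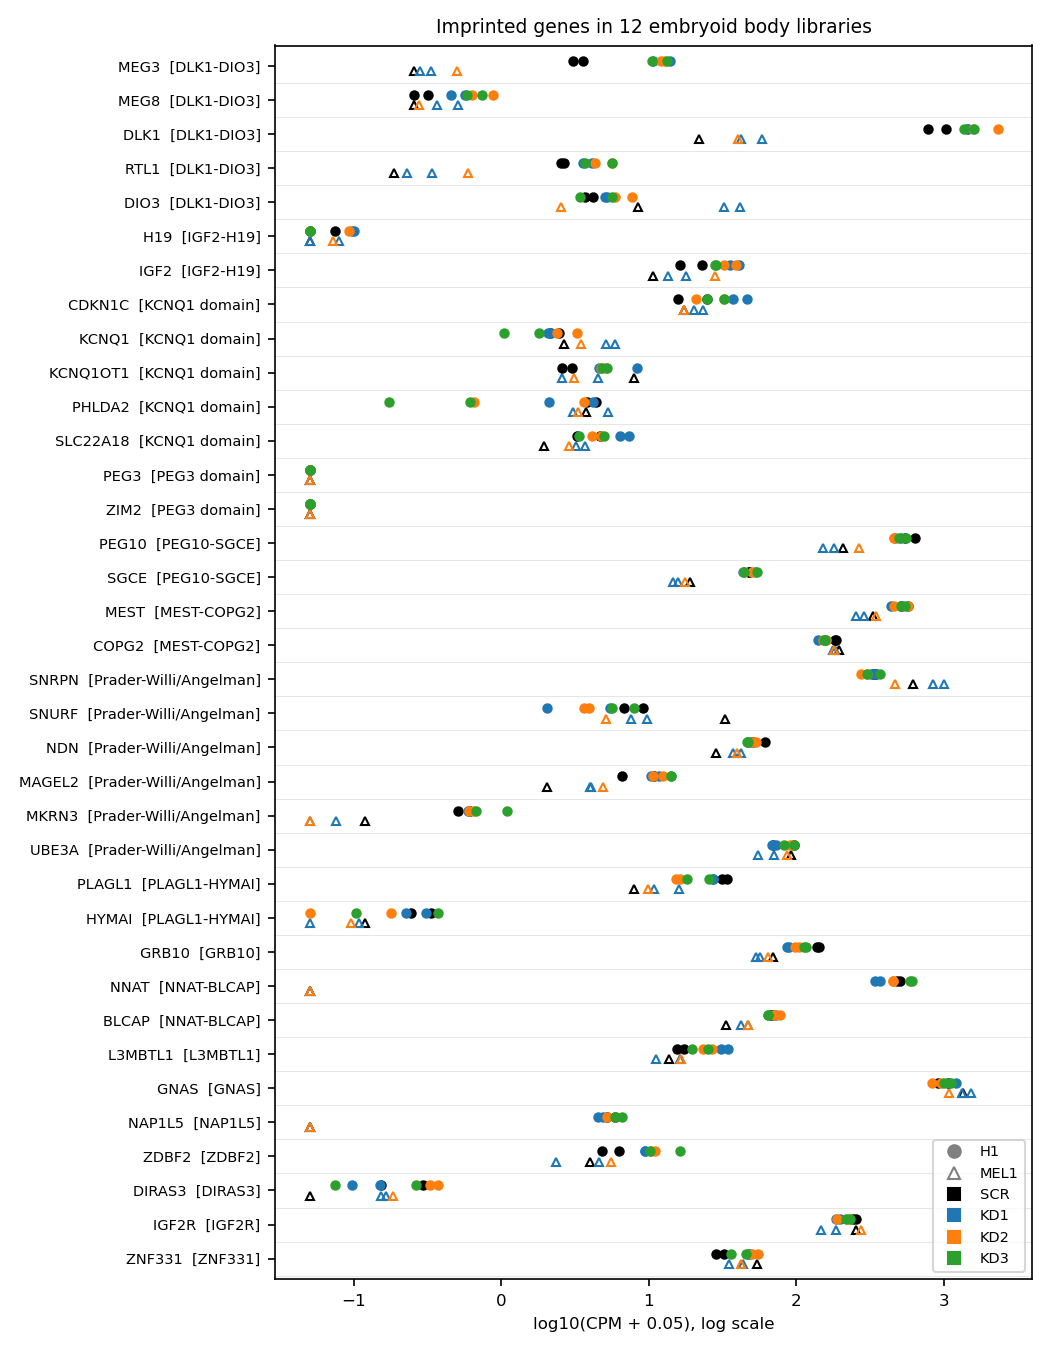
Level of each of the 36 genes in all 12 libraries, as log10(CPM + 0.05) on the horizontal axis, with the locus in brackets. Filled circles are H1, open triangles MEL1 and colours the hairpins. Every triangle lies left of every circle for MEG3, DLK1, RTL1, NNAT, NAP1L5 and MKRN3. The same holds for PEG10, SGCE, MEST, NDN, MAGEL2, GRB10 and BLCAP, while the SNRPN triangles all lie to the right. How many of all genes separate so was not counted. PEG3 and ZIM2 sit at the value that stands for 0.

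The 250 bases upstream of the most 5′ start in RefSeq are printed for 3 genes at or near 0 in MEL1, and for MEST, a paternally expressed gene that was at 256 CPM or more in every library. The MEG3 window begins 46.4 kb downstream of the gene start that GENCODE gives, inside that longer gene model. The sequences come from RefSeq on GRCh38.p14, read on the gene's strand, with each CG, the dinucleotide that carries DNA methylation, in capitals.
MEG3 (chr14:100825858-100826107, plus strand): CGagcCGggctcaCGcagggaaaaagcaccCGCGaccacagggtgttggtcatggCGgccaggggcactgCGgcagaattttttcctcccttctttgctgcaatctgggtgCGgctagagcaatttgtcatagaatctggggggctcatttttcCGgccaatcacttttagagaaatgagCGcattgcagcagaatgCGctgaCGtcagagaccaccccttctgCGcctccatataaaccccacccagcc
NAP1L5 (chr4:88697830-88698079, minus strand): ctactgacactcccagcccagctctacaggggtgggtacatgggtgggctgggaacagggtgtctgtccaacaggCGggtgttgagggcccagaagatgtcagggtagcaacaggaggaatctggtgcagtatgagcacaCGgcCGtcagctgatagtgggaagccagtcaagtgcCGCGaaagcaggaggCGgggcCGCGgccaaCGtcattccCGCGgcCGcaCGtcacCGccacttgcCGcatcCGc
MKRN3 (chr15:23565424-23565673, plus strand): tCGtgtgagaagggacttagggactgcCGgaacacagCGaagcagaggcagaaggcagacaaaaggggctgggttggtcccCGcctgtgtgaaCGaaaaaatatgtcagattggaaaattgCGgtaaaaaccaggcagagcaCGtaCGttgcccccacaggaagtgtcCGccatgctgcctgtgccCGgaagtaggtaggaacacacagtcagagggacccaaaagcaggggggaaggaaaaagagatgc
MEST (chr7:130485925-130486174, plus strand): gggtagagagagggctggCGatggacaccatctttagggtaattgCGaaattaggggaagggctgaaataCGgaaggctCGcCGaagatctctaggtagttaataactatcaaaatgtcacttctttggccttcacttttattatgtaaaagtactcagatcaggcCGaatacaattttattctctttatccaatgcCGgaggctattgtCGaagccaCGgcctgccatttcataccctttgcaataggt
The motif CG occurred 13 times in the MEG3 window, 16 times in NAP1L5, 10 times in MKRN3 and 9 times in MEST. Of 27305 such windows, 93.6% held at least 1 CG, and the median was 10. As many or more were found in 46.2% of windows for MEG3, in 40.6% for NAP1L5, in 51.7% for MKRN3 and in 53.6% for MEST. The 23 members with a window had 4 to 37, with a median of 16, and 17 of them exceeded the median of all windows. Methylation was not measured, so these counts describe the sequence only.

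METTL14 itself was lower in every knockdown library. It stood at 29.8 and 43.8 CPM in H1 SCR and at 8.89 to 17.7 CPM in H1 knockdown, against 49.9 CPM in MEL1 SCR and 5.94 to 8.95 CPM in MEL1 knockdown. Library totals were 36609628 to 43508287 estimated counts, except for MEL1 SCR with 15963241. The lines differed in what they had become by day 10. Summed levels of 6 pluripotency markers were 1153 to 1379 CPM in H1 and 2210 to 3841 CPM in MEL1. Summed levels of 6 neuroectoderm markers were 362 to 741 CPM in H1 and 86.3 to 131 CPM in MEL1. POU5F1, the core pluripotency factor, was 21.3 to 62.2 CPM in H1 and 240 to 879 CPM in MEL1. PAX6, which marks neural precursors, was 95.8 to 224 CPM in H1 and at most 2.92 CPM in MEL1. The sum of 7 trophoblast markers was 19.2 to 25.6 CPM in H1 and 64.3 to 182 CPM in MEL1, and that of 8 mesoderm markers 49.2 to 167 CPM and 94.5 to 160 CPM. Endoderm sums were 0.57 to 1.35 CPM in H1 and 1.18 to 15.5 CPM in MEL1. Single genes made up much of some sums. Of the trophoblast markers TFAP2A was 46.1 to 160 CPM in MEL1, and CGA, CGB3, XAGE2 and ENDOU at most 1.29 CPM in any library. OTX2, a neuroectoderm marker, was 73 to 125 CPM in MEL1. Over all libraries COL1A1 (mesoderm) was 42.9 to 156 CPM and LIN28A (pluripotency) 827 CPM or more. The sums therefore do not measure amounts of a cell type. Within H1 the neuroectoderm sum was 362 and 465 CPM with SCR, against 551 to 741 CPM with knockdown, while that of 6 blood and endothelium markers was 3.67 and 3.89 CPM and 1.71 to 2.61 CPM. In bulk RNA, fewer cells of a type and less RNA per cell cannot be told apart.

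The DLK1-DIO3 locus on chromosome 14 holds MEG3 and MEG8, noncoding RNAs of the maternal copy, and DLK1, RTL1 and DIO3, protein-coding genes of the paternal copy. By GENCODE 29 on GRCh38, MEG3 spans 100779410 to 100861031 on the plus strand and DLK1 spans 100725705 to 100738224. MEG3 was 3.02 and 3.50 CPM in H1 SCR. It was 13.8 and 10.6 CPM with KD1, 12 and 12.8 CPM with KD2, and 10.4 and 13.3 CPM with KD3. All 6 H1 knockdown libraries were above both SCR libraries, and the 3 hairpins gave like levels, with 3.75, 3.80 and 3.63 times the SCR mean. SCR averaged 3.26 ± 0.341 CPM (SD, n = 2). Knockdown averaged 12.2 ± 1.39 CPM (SD, n = 6), a ratio of 3.73. These levels stood on 118 to 145.1 estimated counts with SCR and 388.1 to 561.8 with knockdown.

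In MEL1, MEG3 was 0.204 CPM with SCR, 0.281 and 0.230 CPM with KD1, and 0.450 CPM with KD2. This was 3 to 20 estimated counts a library, and the highest MEL1 library was below the lowest H1 library. The H1 mean at matched hairpins was 31.9 times the MEL1 mean. All 3 MEL1 knockdown libraries were above the single SCR library, which held only 3 counts. MEG8, which hosts small nucleolar RNAs downstream of MEG3, differed less between lines. It was 0.205 and 0.266 CPM in H1 SCR, 0.405 to 0.830 CPM in H1 knockdown and 0.204 to 0.460 CPM in MEL1. Its H1 knockdown libraries did not overlap SCR, but the log2 change of 1.30 ± 0.46 (SE) did not pass the test in edgeR's quasi-likelihood fit (adjusted p = 0.119). Its line difference of -0.69 ± 0.40 did not pass either (adjusted p = 0.173). MEG8 overlaps RTL1 on the opposite strand, and whether counting used strand is not given in the sources used here.

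DLK1, a membrane protein of the Notch ligand family that holds back differentiation, was also higher with knockdown in H1. It was 1042 and 784 CPM with SCR, 1454 and 1450 CPM with KD1, 1580 and 2321 CPM with KD2, and 1618 and 1380 CPM with KD3. All 6 knockdown libraries exceeded both SCR libraries. The log2 change over the 3 hairpins was 0.83 ± 0.18 (SE), which passed edgeR's quasi-likelihood test (adjusted p = 0.0268). In MEL1, DLK1 was 21.9 CPM with SCR, 42.4 and 58.2 CPM with KD1, and 40.1 CPM with KD2. Levels in MEL1 were far below those in H1, with an H1 mean 35.4 times the MEL1 mean and a log2 difference of -5.28 ± 0.20 (edgeR adjusted p = 1.09e-08). RTL1, a retrotransposon-derived protein needed in placenta, was 2.61 and 2.49 CPM in H1 SCR, 3.51 to 5.60 CPM in H1 knockdown and 0.136 to 0.540 CPM in MEL1. Its H1 change of 0.79 ± 0.25 missed the threshold (edgeR adjusted p = 0.0833), and its line difference of -3.80 ± 0.28 passed it (edgeR adjusted p = 9.91e-07).

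DIO3, the deiodinase that inactivates thyroid hormone, did not follow DLK1 and RTL1 in the difference between lines. In H1 it was 3.64 and 4.16 CPM with SCR, 4.98 and 5.16 CPM with KD1, and 5.82 and 7.66 CPM with KD2. With KD3 it was 5.56 and 3.37 CPM. Thus 5 of 6 knockdown libraries were above both SCR libraries and 1 was below both. The H1 change of 0.45 ± 0.21 did not pass (edgeR adjusted p = 0.225). In MEL1 it was 8.38 CPM with SCR, 32.2 and 41.6 CPM with KD1 and 2.5 CPM with KD2, so the MEL1 libraries lay both above and below H1. The line difference of 0.85 ± 0.17 passed the test (edgeR adjusted p = 0.00148) but averages over MEL1 hairpins that went opposite ways. Leaving out the MEL1 KD2 library or another single library kept the call, with log2 values of 0.71 to 1.98.

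**Figure D2:**
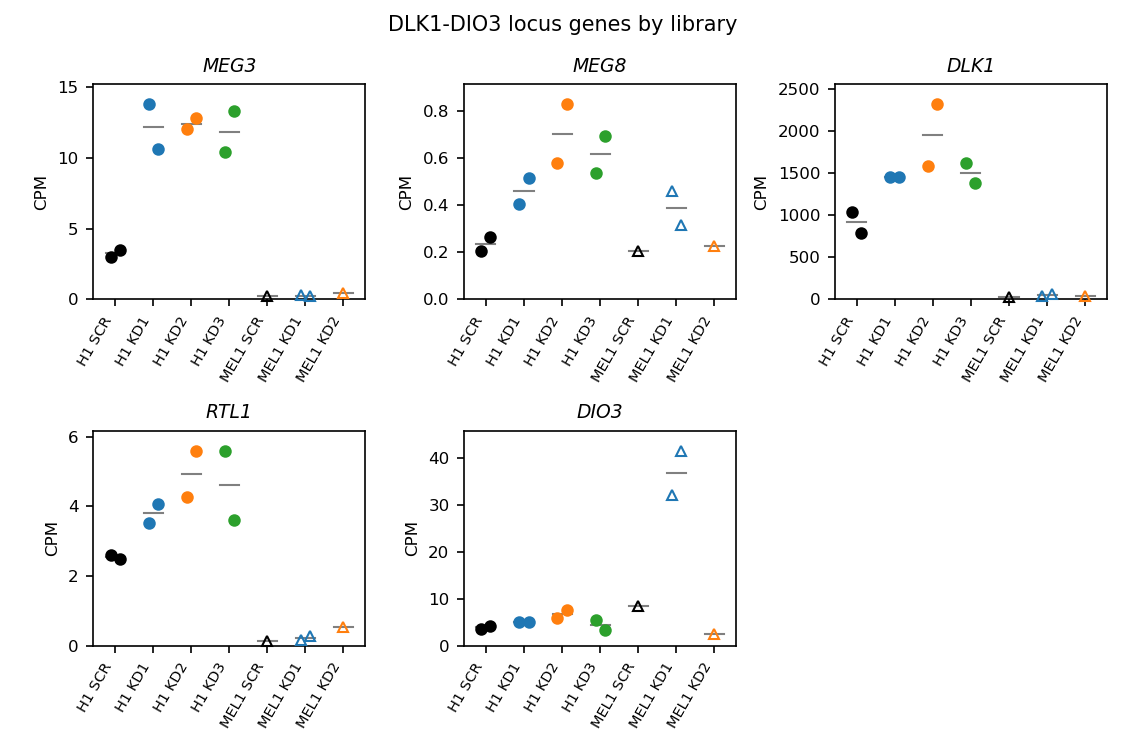
CPM of the 5 DLK1-DIO3 locus genes by group, with 1 point per library and a grey line at the group mean. H1 is drawn as filled circles and MEL1 as open triangles. MEG3, DLK1 and RTL1 are low in all 4 MEL1 libraries, while DIO3 is highest in the 2 MEL1 KD1 libraries.

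Across the other loci the question was which imprinted genes changed with METTL14 knockdown in H1. Of 32 tested members other than MEG3, 7 passed at an adjusted p under 0.05 for the mean of the 3 hairpins. DLK1, IGF2, L3MBTL1, ZDBF2 and ZNF331 rose, and PLAGL1 and GRB10 fell. That is 21.9% of them, where 7.16% of all 24898 genes tested were called, 2.23% higher and 4.93% lower. In a fit of the 16743 genes at a mean of at least 1 CPM, a level that all 7 exceeded, 11.9% of all genes were called. The 32 members include genes under that level, so the 21.9% is not a share of that fit. The median log2 change was 0.01 over these members and 0.01 over all genes tested.

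IGF2, the paternally expressed fetal growth factor, was 23.0 and 16.1 CPM with SCR, against 28.0 to 41.0 CPM with knockdown. Every knockdown library was higher, and the log2 change was 0.79 ± 0.17 (edgeR adjusted p = 0.0206). GRB10, an adaptor that dampens insulin and IGF receptor signalling, was 143 and 138 CPM with SCR, against 86.9 to 116 CPM with knockdown. The groups were again apart, with a change of -0.48 ± 0.08 (edgeR adjusted p = 0.00808). PLAGL1, a zinc finger regulator of growth, was 34.0 and 31.1 CPM with SCR, against 15.3 to 27.4 CPM with knockdown. It changed by -0.63 ± 0.16 (edgeR adjusted p = 0.0389), and KD2 gave the lowest levels, 16.1 and 15.3 CPM. IGF2R, the receptor that clears IGF2, was 244 and 256 CPM with SCR, against 187 to 230 CPM with knockdown, a difference that did not pass (edgeR adjusted p = 0.145).

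L3MBTL1, a chromatin reader, was 17.4 and 15.5 CPM with SCR, 34.4 and 30.6 CPM with KD1, and 19.6 to 26.8 CPM with KD2 and KD3. Its change was 0.67 ± 0.16 (edgeR adjusted p = 0.0343). ZNF331, a zinc finger gene, was 28.6 and 32.5 CPM with SCR, against 36 to 55.1 CPM with knockdown, a change of 0.61 ± 0.13 (edgeR adjusted p = 0.0214). ZDBF2, a zinc finger gene on chromosome 2, was 4.76 and 6.26 CPM with SCR, against 9.33 to 16.1 CPM with knockdown, a change of 0.99 ± 0.26 (edgeR adjusted p = 0.0480). A 2nd identifier had the same ZDBF2 counts in every library, so its reads are split and its level is understated. All 6 knockdown libraries exceeded both SCR libraries for each of these 3 genes. Such a separation describes called genes and is no further test of them. The share of all genes that show it was not counted, here or for the other genes so described.

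These calls leaned on single libraries, and fewer of all genes, too, were called in every fit that left out an H1 library. Without H1 SCR replicate 2, none of the 7 passed. Without H1 SCR replicate 1, DLK1, IGF2 and GRB10 remained, 3 of the 7. Without H1 KD1 replicate 1, IGF2, GRB10 and ZNF331 remained, and without H1 KD1 replicate 2 GRB10 alone did. Leaving out either H1 KD2 library kept DLK1, IGF2, GRB10 and ZNF331. Without H1 KD3 replicate 1, 6 remained, with PLAGL1 lost, and without H1 KD3 replicate 2, 5 remained, with L3MBTL1 and ZDBF2 lost. Leaving out any MEL1 library kept all 7. The log2 changes kept their sign throughout, from 0.64 to 1.06 for DLK1, from 0.56 to 1.08 for IGF2 and from -0.51 to -0.44 for GRB10. Over the same libraries 5 of 6 neuroectoderm markers were called higher and 3 of 6 pluripotency markers lower with knockdown, and their part in these results was not tested.

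**Figure D3:**
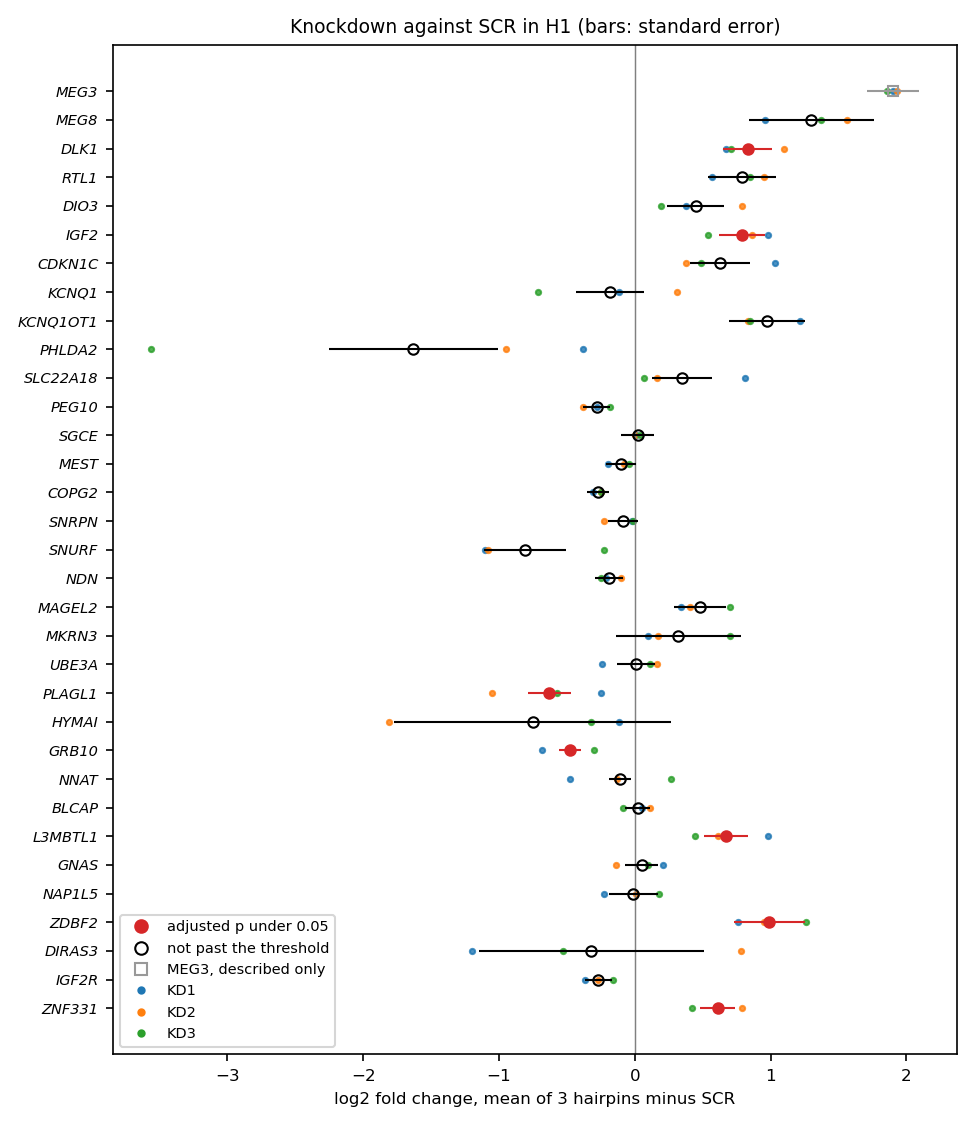
Log2 fold change of knockdown over SCR in H1 for the 33 tested members. Large symbols are the mean of the 3 hairpins with its standard error, red where the adjusted p is under 0.05, and small points are the single hairpins. The 5 genes that rose and the 2 that fell show in red, and MEG3 is a grey square because it was chosen for this change.

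Each hairpin was also set against SCR by itself. KD1 called 7 of 32, KD2 4 and KD3 0, where 11.1%, 1.54% and 2.98% of all genes were called. At an unadjusted p under 0.05 there were 13 members for KD1, 14 for KD2 and 15 for KD3, where 26.6%, 16.1% and 19% of all genes had one. For KD3, DESeq2 called 3 members and 6.84% of all genes. IGF2, L3MBTL1, ZNF331, CDKN1C and KCNQ1OT1 rose with KD1, while GRB10 and NNAT fell. DLK1 and ZNF331 rose with KD2, while PLAGL1 and GRB10 fell. CDKN1C, the maternally expressed cell cycle inhibitor, was 24.9 and 15.8 CPM with SCR and 46.1 and 37.2 CPM with KD1 (log2 change 1.03 ± 0.27, edgeR adjusted p = 0.0362). KCNQ1OT1, the paternal noncoding RNA of the same domain, was 2.54 and 2.95 CPM with SCR and 8.24 and 4.57 CPM with KD1 (1.22 ± 0.33, edgeR adjusted p = 0.0364). Without H1 SCR replicate 2, KD1 called GRB10 alone. Without H1 SCR replicate 1, 4 remained (IGF2, CDKN1C, GRB10 and L3MBTL1). Without H1 KD1 replicate 1 it called 1 member, SNURF, that was not among the 7, and without H1 KD1 replicate 2 it called 2, KCNQ1OT1 and GRB10. CDKN1C was lost without either MEL1 KD1 library. For KD2, 0 or 1 member was called without any 1 of the H1 SCR, KD1 or KD2 libraries, and without either H1 KD3 library GRB10 was lost and 3 remained.

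A test for any difference between the 3 hairpins called 1 member, NNAT, where 3.54% of all genes were called. NNAT encodes neuronatin, a small membrane protein of developing brain, and lies in an intron of BLCAP on chromosome 20 (37521206 to 37523693, plus strand). It was 508 and 485 CPM with SCR, 342 and 368 CPM with KD1, 455 and 455 CPM with KD2, and 607 and 594 CPM with KD3. KD1 libraries were below SCR and KD3 libraries above it (edgeR adjusted p = 0.0121 over the hairpins). The call was lost, with 0 members called, without either KD1 library or without KD3 replicate 2. PHLDA2, a maternally expressed brake on placental growth, was uneven within a hairpin. It was 3.74 and 4.33 CPM with SCR, 4.15 and 2.04 CPM with KD1, 0.599 and 3.58 CPM with KD2, and 0.564 and 0.124 CPM with KD3, and did not pass for the mean of the hairpins (edgeR adjusted p = 0.163).

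With the lines fitted together, all 9 knockdown libraries against all 3 SCR libraries, 0 of 32 members were called. This fit leaves differences between hairpins, and between the lines in the knockdown effect, in the spread. The H1 tests used group means, which take such differences out, so the counts called are not like for like. Counts over both lines by group means are given below. Of all genes tested 0.213% were called, 0.0562% higher and 0.157% lower. Among the members 11 had an unadjusted p under 0.05 in edgeR, as had 15.7% of all genes. DESeq2 called 6, and 5.0% of all genes. DLK1 came closest, with a change of 0.92 ± 0.18 (edgeR adjusted p = 0.0558). IGF2 followed with 0.83 ± 0.21 (edgeR adjusted p = 0.101), and its MEL1 libraries were 10.7 CPM with SCR, against 13.5 to 27.9 CPM with knockdown.

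A test of whether the KD1 and KD2 effect differed between lines called 0 of 32 members, where 0.598% of all genes were called. Of these members 6 had an unadjusted p under 0.05 in edgeR, near the 17.2% of all genes. DESeq2 called 3, and 3.01% of all genes. ZNF331, KCNQ1OT1, PLAGL1 and NDN, among those 6, had knockdown means on opposite sides of the SCR mean in the lines. ZNF331 was 54.4 CPM in MEL1 SCR and 34.7 to 43.5 CPM in MEL1 knockdown, a difference between the lines' log2 changes of -1.13 ± 0.22 (edgeR adjusted p = 0.0528). KCNQ1OT1 was 7.84 CPM in MEL1 SCR and 2.53 to 4.48 CPM in MEL1 knockdown, a difference of -2.28 ± 0.47 (edgeR adjusted p = 0.0553). PLAGL1 was 7.91 CPM in MEL1 SCR and 9.76 to 15.9 CPM in MEL1 knockdown, a difference of 1.18 ± 0.32 (edgeR adjusted p = 0.104). NDN was 28.3 CPM in MEL1 SCR and 37.4 to 42.0 CPM in MEL1 knockdown, a difference of 0.65 ± 0.19 (edgeR adjusted p = 0.12). None of the 4 passed. MEL1 has 1 SCR library, so every MEL1 change rests on it. The median of all genes in this comparison moved from 0.11 to 0.01 with upper-quartile scaling, where 1 member was called.

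**Figure D4:**
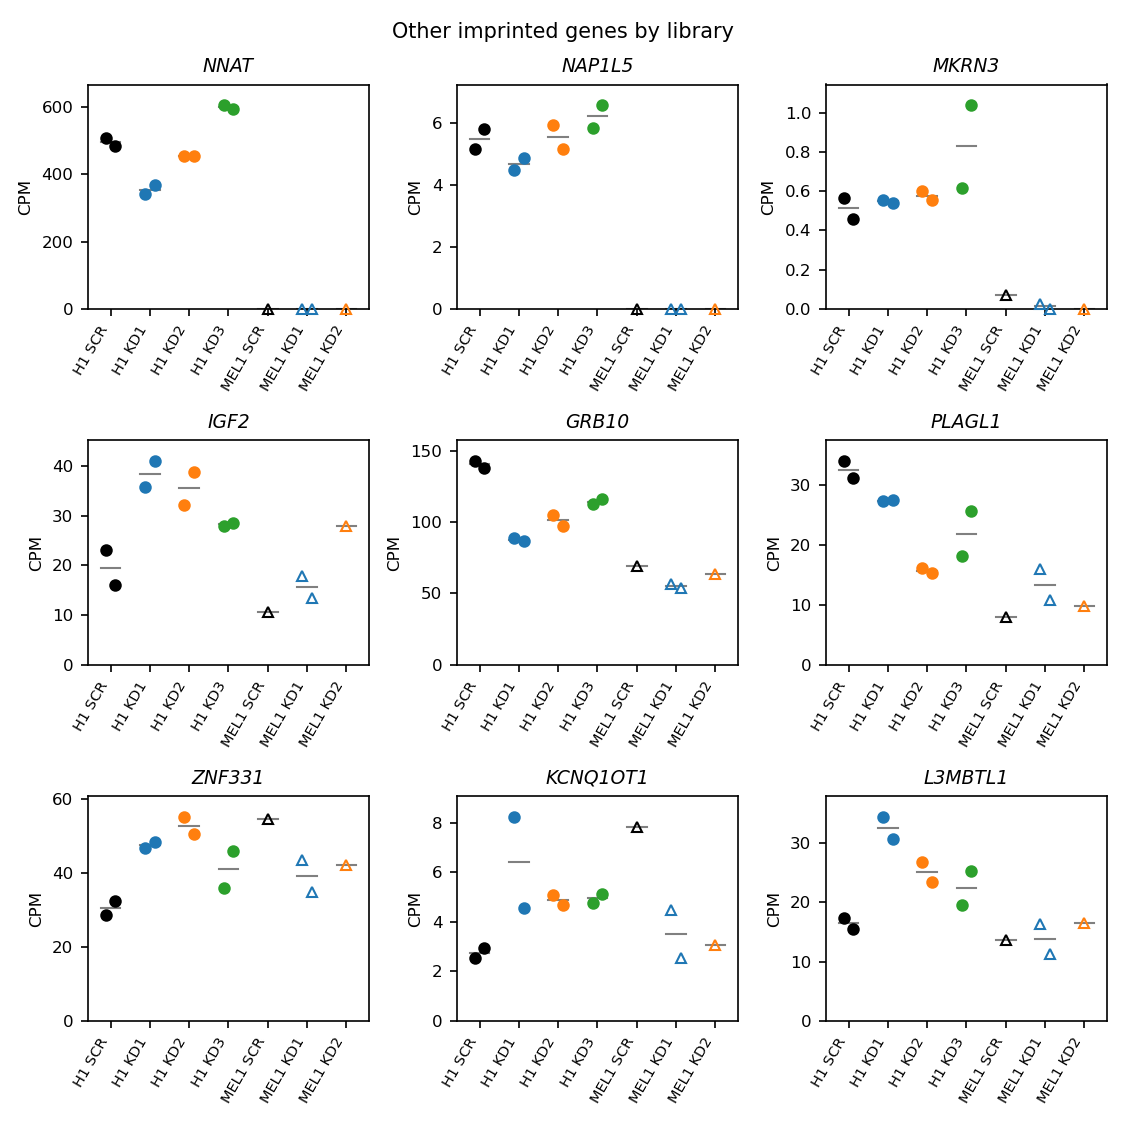
CPM of 9 members by group, with 1 point per library and a grey line at the group mean, filled for H1 and open for MEL1. NNAT and NAP1L5 are at 0 in MEL1, and IGF2 and L3MBTL1 are higher, and GRB10 and PLAGL1 lower, in the H1 knockdown groups than in H1 SCR. ZNF331 and KCNQ1OT1 are above their SCR points with knockdown in H1 and below the SCR point in MEL1.

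The lines differed in most members. At matched hairpins (SCR, KD1 and KD2) 24 of 32 passed the test, 6 higher and 18 lower in MEL1. Of all genes tested 49.1% were called, 23.0% higher and 26.2% lower. Of the 32, MKRN3, NNAT, NAP1L5, HYMAI and DIRAS3 had passed the filter on low counts through H1 libraries alone, so a low level in MEL1 was built into their passing it. That filter asks for about 10 counts in a library of median size. Among the other 27 members 21 were called, 6 higher and 15 lower, a subset added after the values were seen. Of the 21065 genes that reached the filter's level in both lines 51.8% were called, 24.9% higher and 26.9% lower. The median log2 difference was -0.69 over these 27 members and -0.04 over those genes. Of the 27, 15 are known as paternally expressed, and 14 of these were called, 11 lower, with a median of -0.83. Of 5 tested genes known as maternally expressed, 3 were called, 1 higher and 2 lower, with a median of -0.59. The marker sums given above differ between the lines too, and their part in this difference was not tested.

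NNAT and NAP1L5 had 0 counts in all 4 MEL1 libraries. NNAT was at least 1678-fold higher in H1, taking the lowest matched H1 library over the highest level that 3 counts would give in a MEL1 library, 0.204 CPM. NAP1L5, a nucleosome assembly protein-like gene without introns inside HERC3 on chromosome 4, was 4.48 to 6.57 CPM in the 8 H1 libraries and at least 21.9-fold higher by the same measure. HERC3, chosen after its values were seen, had reads in every library of both lines. BLCAP, which surrounds NNAT, was 64.1 to 77.5 CPM in H1 and 33.5 to 46.9 CPM in MEL1 (log2 difference -0.78 ± 0.08, edgeR adjusted p = 7.8e-06). Of 15030 genes at 1 CPM or more in every H1 library, 34 had 0 counts in all MEL1 libraries, and NNAT had the highest H1 level among them. Both genes thus lay inside host genes that were read in the same libraries.

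On chromosome 15 the genes of the Prader-Willi and Angelman region split. MKRN3, a ring finger gene tied to the timing of puberty, had 2 reads in all MEL1 libraries together and 138 in the 6 matched H1 libraries. The pooled ratio was 36.3, with an exact 95% interval of 9.87 to 303 for counting error only. Because MKRN3 passed the low-count filter through H1 alone, this interval is no test of the line difference. The ratio of mean CPM was 23.3, and the fitted log2 difference of -5.13 became -6.32 without MEL1 SCR and -3.94 without MEL1 KD2. MAGEL2, a MAGE family gene, was 6.53 to 14.1 CPM in H1 and 1.98 to 4.86 CPM in MEL1, a difference of -1.61 ± 0.17 (edgeR adjusted p = 1.67e-05). NDN, its MAGE family neighbour necdin, was 46.4 to 60.9 CPM in H1 and 28.3 to 42.0 CPM in MEL1 (-0.55 ± 0.09, edgeR adjusted p = 0.000288). SNRPN, the spliceosomal gene at the imprinting centre, went the other way, at 276 to 369 CPM in H1 and 464 to 998 CPM in MEL1 (1.01 ± 0.09, edgeR adjusted p = 2.76e-06). SNURF, read from the same transcript, was also higher in MEL1 (1.25 ± 0.25, edgeR adjusted p = 0.00247), though 33.0 CPM in MEL1 SCR stood apart from 5.11 to 9.72 CPM in the other MEL1 libraries. UBE3A, the ubiquitin ligase that is maternal in neurons, was 54.9 to 96.9 CPM over both lines and did not pass (-0.03 ± 0.11, edgeR adjusted p = 0.838).

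PEG10, a retrotransposon-derived gene needed in placenta, was 458 to 641 CPM in H1 and 152 to 266 CPM in MEL1, a difference of -1.29 ± 0.09 (edgeR adjusted p = 6.25e-07). SGCE, the sarcoglycan gene that shares its promoter region, was 43.5 to 53.8 CPM in H1 and 14.6 to 19 CPM in MEL1 (-1.47 ± 0.10, edgeR adjusted p = 5.89e-07). Both were thus lower in every MEL1 library. MEST, a hydrolase-fold protein of mesoderm, was 438 to 575 CPM in H1 and 256 to 349 CPM in MEL1 (-0.70 ± 0.10, edgeR adjusted p = 0.000109). COPG2 beside it was called higher by 0.19 ± 0.07 (edgeR adjusted p = 0.0397), and this call was lost on leaving out any library except MEL1 SCR, MEL1 KD1 replicate 1 or H1 KD1 replicate 1, with values of 0.16 to 0.23. In the growth genes, IGF2 was lower in MEL1 by -0.83 ± 0.14 (edgeR adjusted p = 0.000402), GRB10 by -0.78 ± 0.07 (edgeR adjusted p = 3.35e-06) and PLAGL1 by -1.25 ± 0.15 (edgeR adjusted p = 3.17e-05). The IGF2R difference did not pass (0.08 ± 0.09, edgeR adjusted p = 0.488).

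In the KCNQ1 domain on chromosome 11 the maternal genes did not share a direction. SLC22A18, a membrane transporter, was lower in MEL1 by -0.89 ± 0.19 (edgeR adjusted p = 0.00272), at 1.91 to 3.64 CPM against 3.19 to 7.34 CPM in H1. CDKN1C was lower by -0.59 ± 0.18 (edgeR adjusted p = 0.0218), a call lost without MEL1 KD1 replicate 1 (-0.56), without MEL1 KD2 (-0.59) or without H1 KD1 replicate 1 (-0.54). KCNQ1, a potassium channel subunit, was higher by 0.63 ± 0.20 (edgeR adjusted p = 0.0224), a call lost without H1 KD2 replicate 2 (0.57). KCNQ1OT1, antisense to KCNQ1, gave -0.01 ± 0.22 and PHLDA2 gave 0.31 ± 0.53, and neither passed. Elsewhere L3MBTL1 was lower by -0.71 ± 0.13 (edgeR adjusted p = 0.00113) and ZDBF2 by -0.96 ± 0.22 (edgeR adjusted p = 0.00379). With the SCR groups alone, where MEL1 has 1 library, the calls of L3MBTL1 (-0.28), ZDBF2 (-0.48), CDKN1C (-0.23), KCNQ1 (0.21), SLC22A18 (-1.03), GNAS (0.43), COPG2 (0.08) and MKRN3 (-2.85) were lost. With the GC and length trend removed, SLC22A18 moved to -0.50 and stayed called, while CDKN1C moved to -0.30 and was lost. GNAS, the stimulatory G protein subunit, was higher by 0.34 ± 0.09 (edgeR adjusted p = 0.0108), a call lost without MEL1 SCR (0.29). ZNF331 gave 0.08 ± 0.10. HYMAI, a noncoding RNA within PLAGL1, and DIRAS3, a Ras-like GTPase, stayed at or under 0.322 CPM in every library and did not pass.

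**Figure D5:**
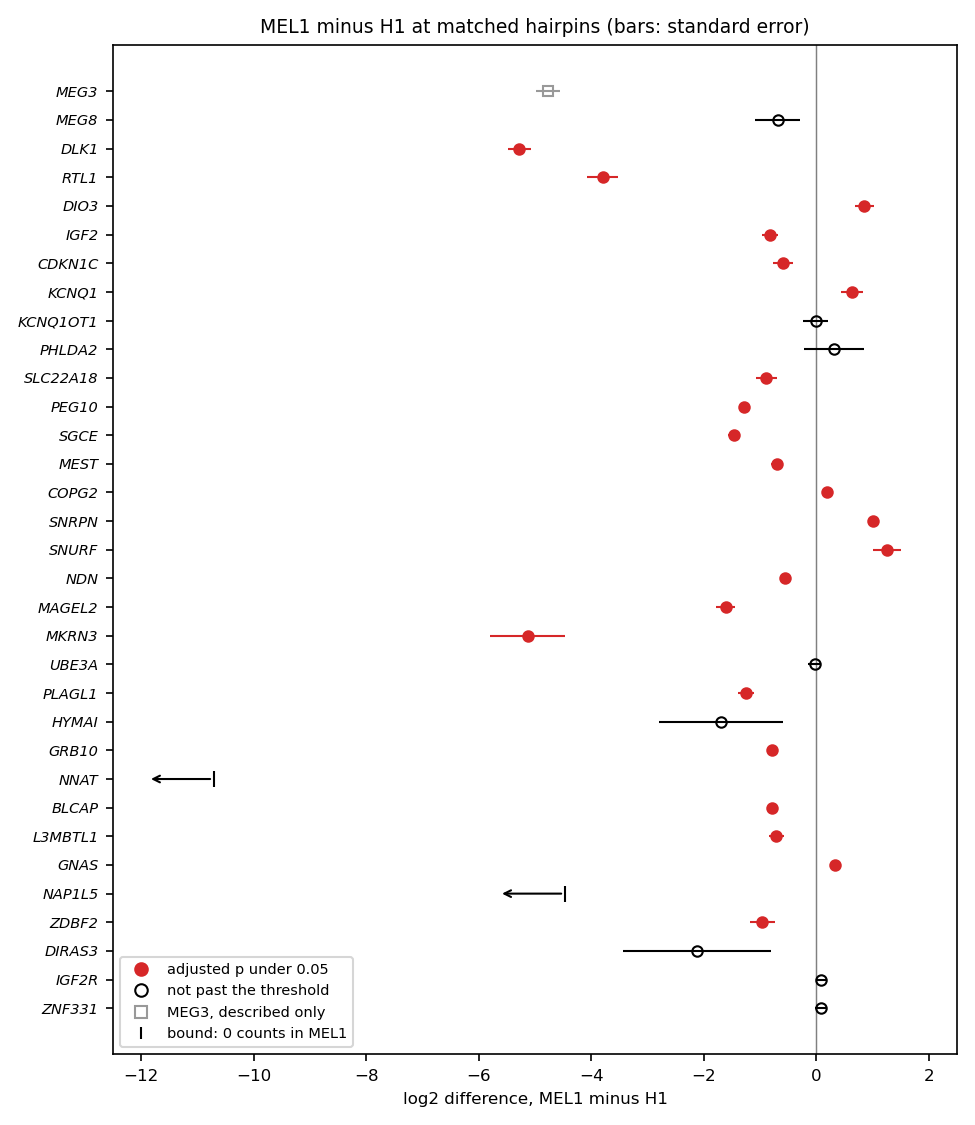
Log2 difference between MEL1 and H1 at matched hairpins for the 33 tested members, with the standard error. Red marks an adjusted p under 0.05, the grey square is MEG3, and bars with arrows are bounds for NNAT and NAP1L5, which had 0 counts in MEL1. DLK1, RTL1 and MKRN3 lie far to the left, and SNRPN, SNURF and DIO3 to the right.

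Lists of related genes were set beside the members. Of 27 genes known for setting or keeping imprints, 24 were tested. For the mean of the H1 hairpins UHRF1 and DNMT3B fell and none rose, or 8.33% of those tested, near the 7.16% of all genes. UHRF1, which brings the maintenance methyltransferase to replicated DNA, changed by -0.61 ± 0.16 (edgeR adjusted p = 0.0483). DNMT3B, a de novo methyltransferase, changed by -0.38 ± 0.10 (edgeR adjusted p = 0.0491). Between the lines 16 of 24, or 66.7%, were called, 9 higher and 7 lower in MEL1, against 49.1% of all genes. DNMT3B was 191 to 285 CPM in H1 and 448 to 1304 CPM in MEL1. ZFP57, a zinc finger protein that guards imprints in the early embryo, was at most 0.143 CPM in any library, while ZNF445, which shares that role, was 24.5 to 54.2 CPM.

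Of 19 genes of the IGF axis, 17 were tested, and IGFBP3, a binding protein that sequesters IGFs, was the 1 called over the H1 hairpins, 5.88% of them against 7.16% of all genes. It was 37.4 and 31.2 CPM with SCR, against 67.4 to 125 CPM with knockdown, with no overlap (log2 change 1.47 ± 0.16, edgeR adjusted p = 0.00168). The GGACT motif, 1 form of the sequence at which N6-methyladenosine is placed, was counted in the longest transcript of each gene. MEG3 held 16 in 12990 bases, and 33.1% of genes had as many or more per kilobase. The median was 0.93 per kilobase over tested members and 0.92 over all genes with a transcript, of which 86.1% held the motif. No methylation of RNA was measured in these libraries, so a motif is a description of the sequence.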

How the data were processed

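Estimated counts per Ensembl gene identifier were deposited by the authors in 1 table of 65969 identifiers, unscaled as far as the values show. The submitters' processing notes name fastp and kallisto, and versions, build, annotation and strand setting are not given in the sources used here. Counts were rounded, and filterByExpr of edgeR over 7 groups left 24898 genes. Scaling was TMM, and CPM use it. Robust quasi-likelihood tests (edgeR 4.0.16, R 4.3.3, limma 3.58.1) were adjusted by Benjamini-Hochberg over all genes and called at 0.05. The both-lines fit had cell line as a covariate, and its spread also holds differences between hairpins. A fit of 7 group means gave the other comparisons. The standard error is the log2 change divided by the square root of F. Code was tested on simulated data. Symbols matched 59243 identifiers, and identifiers outside the name table took 2.17% to 2.84% of counts. Coordinates are GENCODE 29 on GRCh38.

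Members and gene lists were chosen with earlier results of these data known. The text names all called members, and from other lists at most the 6 with the smallest p in a comparison, besides genes with a stated role. Alternatives were 2 other scalings, no filter, a mean of at least 1 CPM, a non-robust fit, removal of a GC and length trend (90.6% of tested genes had values), DESeq2 1.42.0, other sample sets, and leaving out each library. A total of 3 counts served as the floor for genes at 0. Intervals cover counting error only.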

Additional observations from a re-analysis of the deposited data

Results flagged for a closer look

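In 5 of 61 groups of libraries a single library stood apart by Dixon's test at the 95% level, where chance alone gives about 1 in 20. DLK1 was 2321 CPM in H1 KD2 replicate 2, and the next H1 knockdown library was 1618 CPM. KCNQ1OT1 was 8.24 CPM in H1 KD1 replicate 1, with 5.13 CPM next among H1 knockdown libraries. MKRN3 was 1.04 CPM in H1 KD3 replicate 2, with 0.618 CPM next. ZDBF2 was 16.1 CPM in the same library, with 11.0 CPM next. SNURF was 33.0 CPM in MEL1 SCR, where the next MEL1 library was 9.72 CPM. All other MEL1 libraries carry a METTL14 hairpin, so this gap is also the gap between SCR and knockdown. The MEL1 SCR library is the shallowest of the 12. What set these libraries apart was not tested.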

How the results depend on the processing

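Counts are of members called without MEG3, each followed by the count over all genes in the same fit, except in the ranges for the lines. For the H1 mean they were 7 and 1783, with no filter 11 and 3256, with DESeq2 11 and 2696, and with 1 library left out 0 to 8 and 123 to 1842. For KD1 they were 7 and 2758, and 1 to 8 and 206 to 2766 with 1 library left out. For KD2 they were 4 and 384, with no filter 9 and 1745, with the GC and length trend removed 8 and 1176, and with 1 library left out 0 to 4 and 64 to 400. For KD3 they were 0 and 741, under median-of-ratios scaling 1 and 764, under upper-quartile scaling 1 and 779, at a mean of at least 1 CPM 1 and 927, with DESeq2 3 and 1702, with no filter 6 and 2290, with the trend removed 7 and 2012, and with 1 library left out 0 to 1 and 108 to 881. Between hairpins they were 1 and 881, with no filter 6 and 3384, with the trend removed 3 and 1934, with DESeq2 4 and 2224, and with 1 library left out 0 to 2 and 154 to 1139. For both lines they were 0 and 53, with no filter 1 and 80, at a mean of at least 1 CPM 1 and 87, with the trend removed 1 and 96, with group means 5 and 2688, with DESeq2 6 and 1246, and with 1 library left out 0 to 2 and 11 to 280. For the difference in knockdown effect they were 0 and 149, under median-of-ratios scaling 1 and 88, under upper-quartile scaling 1 and 97, with no filter 4 and 1369, with the trend removed 3 and 521, with DESeq2 3 and 750, and with 1 library left out 0 to 2 and 34 to 565. That comparison could not be fitted without the MEL1 SCR library. Between the lines they were 24 and 12228, with 18 to 24 members under the planned settings, 21 over genes at the filter's level in both lines, and 22 to 24 with 1 library left out. Over all genes the line comparison called 10192 at a mean of at least 1 CPM, 11625 with DESeq2 and 12775 with no filter. It called 10911 over genes at the filter's level in both lines, and fewest with the SCR groups alone, where MEL1 has 1 library. In the line comparison fewer of all genes than in the main fit were called whenever a library was left out. The cause of these changes was not tested. No paired analysis was possible because the labels carry no replicate numbers. No called value changed sign. Levels under about 1 CPM, as for MEG8, HYMAI, DIRAS3 and MKRN3, rest on few counts, and the shallow MEL1 SCR library limits every change within MEL1.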

Other observations

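Of 46 further imprinted genes not among the members, 38 were tested, and 3 were called for the mean of the H1 hairpins. That is 7.89%, near the 7.16% of all genes. DIO3OS, the RNA antisense to DIO3, rose by 1.31 ± 0.32 (edgeR adjusted p = 0.0353). It was 1.15 and 0.653 CPM with SCR, 1.11 and 1.12 CPM with KD1, and 2.34 to 4.45 CPM with KD2 and KD3. CALCR, the calcitonin receptor, was lower, with a log2 change of -2.39 ± 0.53 (edgeR adjusted p = 0.0245), at levels of at most 0.333 CPM in H1. NAP1L4, a nucleosome assembly protein, was lower, with a change of -0.36 ± 0.10 (edgeR adjusted p = 0.0476).

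Between the lines 17 of these 38, or 44.7%, were called, 9 higher and 8 lower in MEL1, where 49.1% of all genes were. NLRP2, an oocyte and embryo protein, was 8.61 to 17.8 CPM in MEL1 and at most 0.0923 CPM in H1. SNHG14, the long host transcript downstream of SNRPN, was 503 to 758 CPM in MEL1 and 218 to 329 CPM in H1, and so differed in the same direction as SNRPN. MEG9, a noncoding RNA of the DLK1-DIO3 locus, had 0 counts in all 4 MEL1 libraries and at most 0.152 CPM in H1, too few to test.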
